A study of Mus musculus with 5 samples.

Results

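The genes described here make and break down cyclic AMP and cyclic GMP: the adenylyl cyclases, named Adcy with a number, and the cyclic nucleotide phosphodiesterases, named Pde with a number and in most cases a letter. Of 22980 genes in the deposited tables, 31 had such a symbol and 29 of them had at least 20 counts over all barcodes, 10 cyclases and 19 phosphodiesterases. Pde1b had 19 counts and Pde6c had 5, so both were left out, while the lowest genes kept were Adcy4 with 73 and Adcy8 and Pde6b with 123 each. The 29 members held 112283 counts, of which 106991 were phosphodiesterase and 5292 cyclase counts.

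A cyclase turns ATP into cyclic AMP when a hormone receptor activates the stimulatory G protein Gs, and the phosphodiesterases end the signal by hydrolysing cyclic AMP, cyclic GMP or both. In the kidney this pair sets how strongly a tubule answers hormones such as vasopressin, parathyroid hormone and glucagon, which act on water channels in principal cells, phosphate uptake in the proximal tubule and salt transport in the distal segments. The PDE4, PDE7 and PDE8 families are cyclic AMP specific, PDE5, PDE6 and PDE9 are cyclic GMP specific, and PDE1, PDE3, PDE10 and PDE11 take both.

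The data were UMI counts per gene and barcode from kidneys of C57BL/6 mice, in 5 libraries with 1 library a group. One 10x Chromium library of 6147 nuclei came from a kidney at day 14 of UUO, unilateral ureteral obstruction, in which tying off a ureter injures tubules and scars the organ. The others came from healthy kidney: 2084 nuclei by 10x, 3011 by sNucDrop-seq, 2769 by DroNc-seq and 3531 whole cells by Drop-seq. Nuclei were released with detergent and a Dounce homogenizer and whole cells by enzymatic digestion followed by a sort on light scatter; no transgene or drug is named for any group, and the sources used here give neither age nor sex. Cell classes are the authors' deposited labels, with labels of the same cell type summed. The ascending limb pairs the UUO label TAL with the healthy label LH(AL). The descending limb pairs the UUO label DL and tAL with the healthy label LH(DL). In UUO the thin ascending limb, tAL, thus sits in the descending limb class, and its healthy place is not stated by the labels. With 1 library a group no difference has a replicate check and there is no test, and every interval below is an exact 95% interval that covers counting error only.

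Libraries held between 2947137 and 7411036 UMIs, and the median barcode between 1055 and 1630. The UUO and healthy 10x libraries shared 23 barcode sequences, and among the other pairs only sNucDrop-seq and Drop-seq shared any, 1. Transcripts of sex-linked genes differed between the libraries compared: Xist stood at 0.405 CPM (counts per 1000000 UMIs) in UUO and 1321 in healthy 10x, while 4 Y-linked genes summed to 619 CPM in UUO and 3.73 in healthy 10x. In sNucDrop-seq these values were 0 and 446 CPM, and in DroNc-seq 1309 and 8.70, so UUO cannot be told apart from a difference of sex against healthy 10x, and ratios against each healthy nucleus library are given for the main results. The marker lists of 6 tubule classes were lower in UUO: the 10 proximal tubule markers summed to 1242 CPM in UUO proximal tubule and 14745 in healthy 10x proximal tubule, and the lists of the ascending limb, distal convoluted tubule, connecting tubule, principal cells and intercalated cells were lower too. The descending limb list was at 1327 CPM in UUO and 1174 in healthy 10x, and the podocyte list at 53422 and 35820 CPM. The part of these levels in the members' ratios was not tested. Tubule, podocyte and endothelial classes of the 10x libraries held their own marker list above the remaining nuclei, though the principal cell list was highest in UUO connecting tubule and the proximal tubule list in the 3 healthy 10x macrophage nuclei, which held 1 of 8 macrophage markers. The stromal list was at 206 CPM under the UUO label Fib.2, below the 301 CPM of the remaining nuclei.

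The starts of 4 genes on which the results turn are shown first, each as the 300 bases from 250 before to 50 after a RefSeq start (GRCm38.p6). Pde4b and Pde1c stood apart in intercalated cells, Pde8b in principal cells and Pde4d in the proximal tubule. Capitals mark the core of the cyclic AMP response element, TGACG or its reverse complement CGTCA, searched on both strands, which overlaps the full element TGACGTCA; the Pde1c and Pde4d windows hold none. Pde4b has 4 windows, Pde1c 3 and Pde8b 5, and for Pde4b and Pde8b the one shown is the only one with the core. The Pde4b window is chr4:102421305-102421604 on the plus strand, the Pde1c window chr6:56362343-56362642 on the minus strand, the Pde8b window chr13:95223001-95223300 on the minus strand and the Pde4d window chr13:108653927-108654226 on the plus strand.
Pde4b: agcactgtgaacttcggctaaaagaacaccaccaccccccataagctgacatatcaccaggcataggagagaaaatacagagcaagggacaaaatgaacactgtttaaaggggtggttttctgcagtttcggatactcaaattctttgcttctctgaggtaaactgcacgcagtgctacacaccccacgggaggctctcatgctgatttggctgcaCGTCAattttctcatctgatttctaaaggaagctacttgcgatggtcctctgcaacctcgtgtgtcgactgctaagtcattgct
Pde1c: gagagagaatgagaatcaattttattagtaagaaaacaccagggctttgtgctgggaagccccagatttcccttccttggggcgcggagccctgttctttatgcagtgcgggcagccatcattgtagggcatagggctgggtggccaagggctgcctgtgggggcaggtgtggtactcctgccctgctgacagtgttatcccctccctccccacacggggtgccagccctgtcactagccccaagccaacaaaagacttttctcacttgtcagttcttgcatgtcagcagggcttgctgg
Pde8b: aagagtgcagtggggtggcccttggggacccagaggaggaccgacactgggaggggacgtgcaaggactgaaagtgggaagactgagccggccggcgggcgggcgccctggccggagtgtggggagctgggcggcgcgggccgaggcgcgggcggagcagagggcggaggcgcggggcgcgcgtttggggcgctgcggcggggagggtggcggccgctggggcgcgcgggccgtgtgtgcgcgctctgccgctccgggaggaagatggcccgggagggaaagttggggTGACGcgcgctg
Pde4d: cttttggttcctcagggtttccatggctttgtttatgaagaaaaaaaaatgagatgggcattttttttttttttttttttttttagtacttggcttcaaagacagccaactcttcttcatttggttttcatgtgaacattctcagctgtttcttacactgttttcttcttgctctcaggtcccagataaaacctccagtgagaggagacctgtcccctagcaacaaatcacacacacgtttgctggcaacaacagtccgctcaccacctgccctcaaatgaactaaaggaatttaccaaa

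RefSeq windows were matched for 22 of the 29 members, 40 windows in all, and not for Adcy6, Adcy8, Pde3a, Pde3b, Pde6a, Pde7a and Pde9a. The core was present in 7 of the 40 windows, 17.5%, against 20.8% of all 32851 windows of this length, so its share among the members was near the background. Besides the Pde4b and Pde8b windows shown, it lay in windows of Adcy7, Adcy9, Pde1a, Pde4a and Pde8a. The full element was in 0 of the 40 windows and in 1.79% of all windows. The counts are per gene, so they do not say which start was used.

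Pde4d, a cyclic AMP phosphodiesterase of the rolipram-sensitive PDE4 family, held 63512 counts, 56.6% of all member counts. The gene spans 1504 kb of chromosome 13 (13:108449948 to 109953461), and nuclear RNA holds introns, so levels were also set per length. Per kb of gene span the nuclear libraries had 166 counts for Pde4c, 66.3 for Adcy6, 44.5 for Pde7a and 41.0 for Pde4d. Per kb of exon the order was Pde4d with 5141, Pde1a with 1222, Pde8a with 1080 and Pde4c with 814. Pde4d was therefore first per kb of exon but below 3 other members per kb of span. Members made up 0.364% of UMIs in UUO, 0.696% in healthy 10x, 0.517% in sNucDrop-seq and 0.617% in DroNc-seq. In the healthy whole cells they made up 0.0681%, less than in any nucleus library.

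Where along the nephron each member stood was taken first from the healthy 10x nuclei. A gene counts as placed in a class where it had at least 10 counts there and a CPM at least 3-fold that of all other nuclei. Of 27 members with at least 20 counts in that library, 11 were placed, 40.7%, against 18.7% of all 10914 genes tested the same way. They made 14 pairs of gene and class, of which 11 were also placed in both other healthy nucleus libraries, 3 in healthy 10x alone and 7 in UUO.

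**Figure D1:**
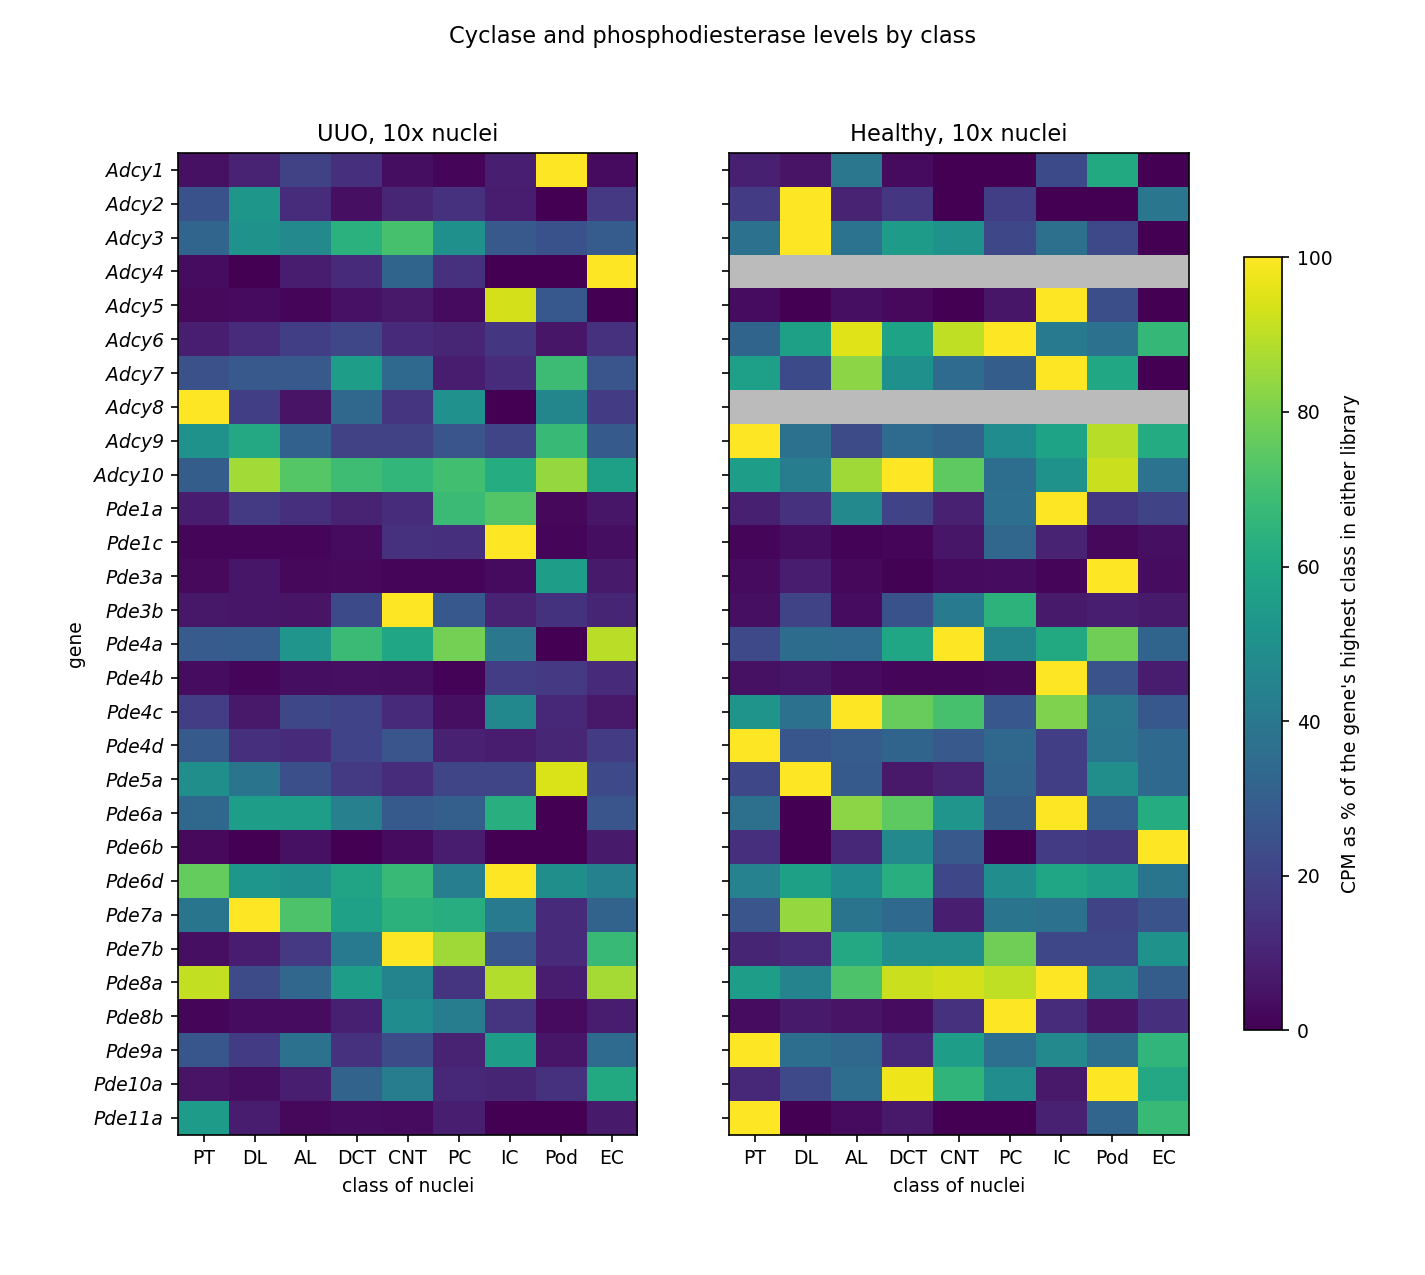
Level of the 29 members (rows) in 9 classes of nuclei (columns) of the UUO library, left, and the healthy 10x library, right. Colour is the gene's CPM in the class as a percentage of its highest class CPM in either library, from 0 to 100; grey rows are genes listed at 0 in that library. PT, proximal tubule; DL, descending limb; AL, ascending limb; DCT, distal convoluted tubule; CNT, connecting tubule; PC, principal cell; IC, intercalated cell; Pod, podocyte; EC, endothelium. Each gene is brightest in the class where its CPM is highest, such as Pde4b in healthy IC at 2652 CPM and Pde1c in UUO IC at 1745 CPM.

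Intercalated cells, the acid- and base-secreting cells of the collecting duct, stood out for 3 members. Pde4b, a cyclic AMP phosphodiesterase, was at 2652 CPM (534 counts) in healthy 10x intercalated cells against 118 CPM in the other nuclei, 22.4-fold. It was at 1337 CPM in sNucDrop-seq and 2133 CPM in DroNc-seq intercalated cells, 14.8-fold and 16.6-fold above the other nuclei of those libraries. Both healthy subtypes carried it, the acid-secreting IC-A at 1918 CPM (interval 1633 to 2238) and the base-secreting IC-B at 3177 CPM (2863 to 3516) in 10x, and IC-B was also the higher label in sNucDrop-seq (1532 against 910 CPM) and DroNc-seq (2438 against 1607 CPM). Pde1a, a phosphodiesterase activated by calcium and calmodulin, was at 1535 CPM in healthy 10x intercalated cells, 1332 in sNucDrop-seq and 1555 in DroNc-seq. It was placed there in these 3 libraries and also in whole cells, at 332 CPM. Adcy5, a cyclase that calcium inhibits, had 30 counts and 149 CPM in healthy 10x intercalated cells, 24.1-fold above the other nuclei, but 4 and 8 counts in the intercalated cells of sNucDrop-seq and DroNc-seq, where it was not placed.

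Principal cells, the water- and sodium-reabsorbing cells that answer vasopressin, were a place of Pde1c and Pde8b and, with the connecting tubule, of Pde3b. Pde1c, a relative of Pde1a, was at 578 CPM in healthy 10x principal cells, 522 in sNucDrop-seq and 488 in DroNc-seq, more than 10-fold above the other nuclei of each library. Pde8b, a cyclic AMP phosphodiesterase that common inhibitors do not block, was at 1385 CPM in healthy 10x principal cells, 210 in sNucDrop-seq and 349 in DroNc-seq, and the 10x interval (1177 to 1618) lay above both others. In sNucDrop-seq and DroNc-seq Pde8b was also placed under the MC label, at 329 and 355 CPM, above the principal cell values of those libraries. Pde3b, which cyclic GMP inhibits, was at 317 CPM in healthy 10x connecting tubule and 491 in principal cells, 107 and 109 in sNucDrop-seq, and 168 and 157 in DroNc-seq. It was higher still in the descending limb of sNucDrop-seq, at 145 CPM, and in the macrophages of DroNc-seq, at 222 CPM, and was placed there too.

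The proximal tubule, which reabsorbs most of the filtrate, was the place of Pde4d and Pde11a in healthy 10x and in neither of the other healthy nucleus libraries. Pde4d was at 7133 CPM there against 2099 CPM in the other nuclei, 3.40-fold. The proximal tubule was also its highest class in sNucDrop-seq at 4083 CPM and DroNc-seq at 4826 CPM, under the 3-fold rule in both. In these 2 libraries proximal tubule markers outside the proximal tubule stood at 40.6% and 31.7% of their level inside it, against 9.63% in healthy 10x, and the part of this in the placing was not tested. Pde11a, which hydrolyses both nucleotides, had 65 counts in healthy 10x proximal tubule, 56 of them under the S3 label (103 CPM) and 9 under S1-S2. S3 was also the higher label in DroNc-seq, at 38.1 against 13.1 CPM, but not beyond counting error in sNucDrop-seq, at 16.4 against 16.2 CPM.

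Podocytes, the filter cells of the glomerulus, held Pde3a and Pde10a, and the label MC held Pde3a. Pde3a, known from platelets and smooth muscle, was at 544 CPM in podocytes of healthy 10x, and at 270 and 339 CPM in those of sNucDrop-seq and DroNc-seq. Under the MC label the same libraries held 912 CPM (14 counts in 16 nuclei), 366 CPM (59 counts in 147 nuclei) and 1116 CPM (292 counts in 146 nuclei). Pde10a was at 214 CPM in healthy 10x podocytes and 209 CPM in the distal convoluted tubule, the thiazide-sensitive segment, and was placed in both classes in all 3 healthy nucleus libraries. Adcy1, a calcium- and calmodulin-stimulated cyclase, was placed in the ascending limb, the salt-diluting segment, with 34 counts and 52.3 CPM in 10x, 50.4 CPM in sNucDrop-seq and 26.3 CPM in DroNc-seq. Its podocyte level was higher than this in each of these libraries: 80.3 CPM in healthy 10x, from 9 counts and so under the count rule, 108 CPM in sNucDrop-seq and 66.7 CPM in DroNc-seq, where it was placed. Adcy4 was listed at 0 in healthy 10x and was placed in endothelium in sNucDrop-seq (83.8 CPM, 13 counts) and DroNc-seq (64.2 CPM, 11 counts). Adcy7, a cyclase of blood cells, was placed in macrophages in DroNc-seq at 233 CPM.

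By the same rule 12 of 28 members were placed in sNucDrop-seq, against 14.6% of all genes, 12 of 28 in DroNc-seq, against 20.4%, and 3 of 19 in Drop-seq, against 12.1%. In whole cells the 3 were Adcy6 in the distal convoluted and connecting tubule, Pde1a in the ascending limb and intercalated cells and Pde7b in the distal convoluted tubule. Pde4b, which led intercalated nuclei, had 4 counts in 36 intercalated whole cells.

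In UUO 16 of 27 members were placed, against 16.6% of all genes, several of them under labels absent from the healthy library. Under the label JGA, whose 46 nuclei held the renin gene Ren1 at 1639 CPM, Pde10a was at 2171 CPM with 102 counts in 29 nuclei, of which 27 counts came from 1 nucleus. Pde3a was at 1873 CPM there, with 88 counts in 30 nuclei. Under the fibroblast label Fib.1 Pde3a was at 567 CPM, Adcy7 at 126, Pde4a at 115, Pde5a at 75.4 and Adcy3 at 71.8. Adcy7 was at 239 CPM in UUO macrophages, with 15 counts in 12 nuclei, close to its DroNc-seq level.

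Adcy8, a calcium-stimulated cyclase known from the brain, had 99 counts in UUO and was listed at 0 in the healthy 10x and DroNc-seq libraries, so it has no fold. In sNucDrop-seq it had 13 counts. In UUO 81 of the 99 were in the proximal tubule, 30 under the S1 label (76.8 CPM) and 42 under S2 (20.4 CPM), in 68 of 2352 nuclei. In the healthy 10x library a listed gene was present in at least 4 barcodes, against 1 in UUO, so a gene with a few counts may be missing from the healthy list.

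The comparison that the series allows for disease is UUO against healthy 10x nuclei, over all nuclei and then within classes. A ratio was taken for members with a count in each library and at least 20 counts over the pair of sums, and a member was counted as higher or lower where the CPM differed at least 2-fold. Over all nuclei 0 of 27 measured members were higher in UUO and 6 were lower, 22.2%, against 10.2% of 12831 genes higher and 20.5% lower, so the share of members lower was near that of all genes. The median log2 ratio was -0.35 for members and -0.16 for all genes. In these sums fewer nuclei of a class and less RNA per nucleus cannot be told apart: the ascending limb made up 13.5% of UUO and 26.1% of healthy 10x nuclei, and intercalated cells 4.80% and 7.63%. The ascending limb labels of UUO and healthy 10x differ, and the part of this in its share and ratios was not tested.

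**Figure D2:**
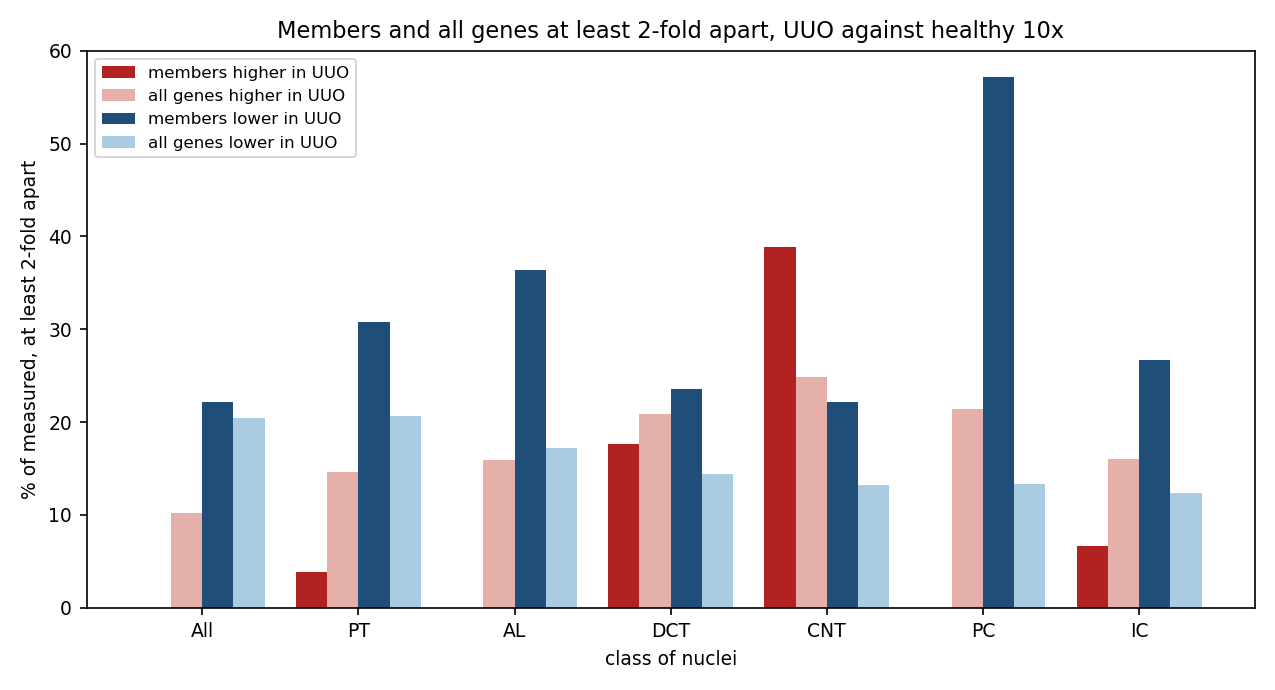
Share of measured members and of all measured genes at least 2-fold higher or lower in UUO than in healthy 10x nuclei (bars, y axis in % from 0), over all nuclei and in 6 classes (x axis; abbreviations as in the map of levels by class). Members lower in UUO reach 57.1% in PC, where 13.3% of all genes were lower, and members higher in UUO reach 38.9% in CNT, where 24.9% of all genes were higher.

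Adcy4 and Adcy8 were listed at 0 in healthy 10x and so have no ratio. Among the cyclases with a ratio over all nuclei, only Adcy6 was at least 2-fold apart from healthy 10x. Adcy6 is the calcium-inhibited form that serves vasopressin in the collecting duct. Over all nuclei it had 149 counts and 20.1 CPM in UUO, against 284 counts and 96.4 CPM in healthy 10x, 70.0 CPM in sNucDrop-seq and 98.2 CPM in DroNc-seq. The log2 ratio of UUO to healthy 10x was -2.26 (interval -2.56 to -1.97), and -2.36 with each class given equal weight. UUO was below all 3 healthy nucleus libraries by at least 2-fold in the proximal tubule (13.8 CPM, against 53.9, 52.5 and 78.5), ascending limb (31.0, against 158, 119 and 141) and connecting tubule (20.3, against 151, 131 and 164).

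The same held for Adcy6 in the distal convoluted tubule, at 35.2 CPM in UUO against 96.9, 154 and 194 CPM in healthy 10x, sNucDrop-seq and DroNc-seq, and in intercalated cells, at 26.3 against 69.5, 135 and 150 CPM. Only 7 UUO and 14 healthy 10x counts stood behind the last ratio, and its interval reached 0. In principal cells Adcy6 had 8 counts in UUO and 19 in healthy 10x, 18.1 and 167 CPM. In nuclei thinned to 500 UMIs it was detected in 1.29% of UUO ascending limb nuclei and 8.11% of healthy 10x ones (3.12% and 15.7% unthinned). Adcy6 shares exon bases with a gene on the opposite strand, Gm29331, as Adcy2, Adcy3, Pde3a, Pde5a, Pde7a, Pde8b and Pde9a do with others, and the strand setting of the counting was not stated.

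Over all nuclei the other cyclases measured differed less than Adcy6 against healthy 10x. Adcy9, the most counted cyclase, was at 72.9 CPM in UUO and 115 CPM in healthy 10x, a log2 ratio of -0.65, but at 64.8 CPM in sNucDrop-seq and 61.0 CPM in DroNc-seq, so UUO lay inside the range of the healthy libraries. In intercalated cells Adcy9 was at 37.6 CPM (10 counts) in UUO and 104 CPM (21 counts) in healthy 10x, a log2 ratio of -1.47 (interval -2.72 to -0.32). Adcy10, the soluble cyclase that bicarbonate activates, was at 24.0 CPM in UUO and 32.2 CPM in healthy 10x. Adcy5, in intercalated cells, was at 139 CPM in UUO and 149 CPM in healthy 10x, with a log2 ratio of -0.10 (interval -0.83 to 0.65). Against sNucDrop-seq and DroNc-seq, where it had few counts in these cells, the Adcy5 ratio was 2.80 and 2.72, so it turned on the healthy library used. Adcy7 was lower in UUO proximal tubule (7.43 against 16.8 CPM) and ascending limb (8.34 against 24.6 CPM), from 27 and 7 UUO counts, and the proximal tubule ratio turned to 0.30 with DroNc-seq as the reference.

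**Figure D3:**
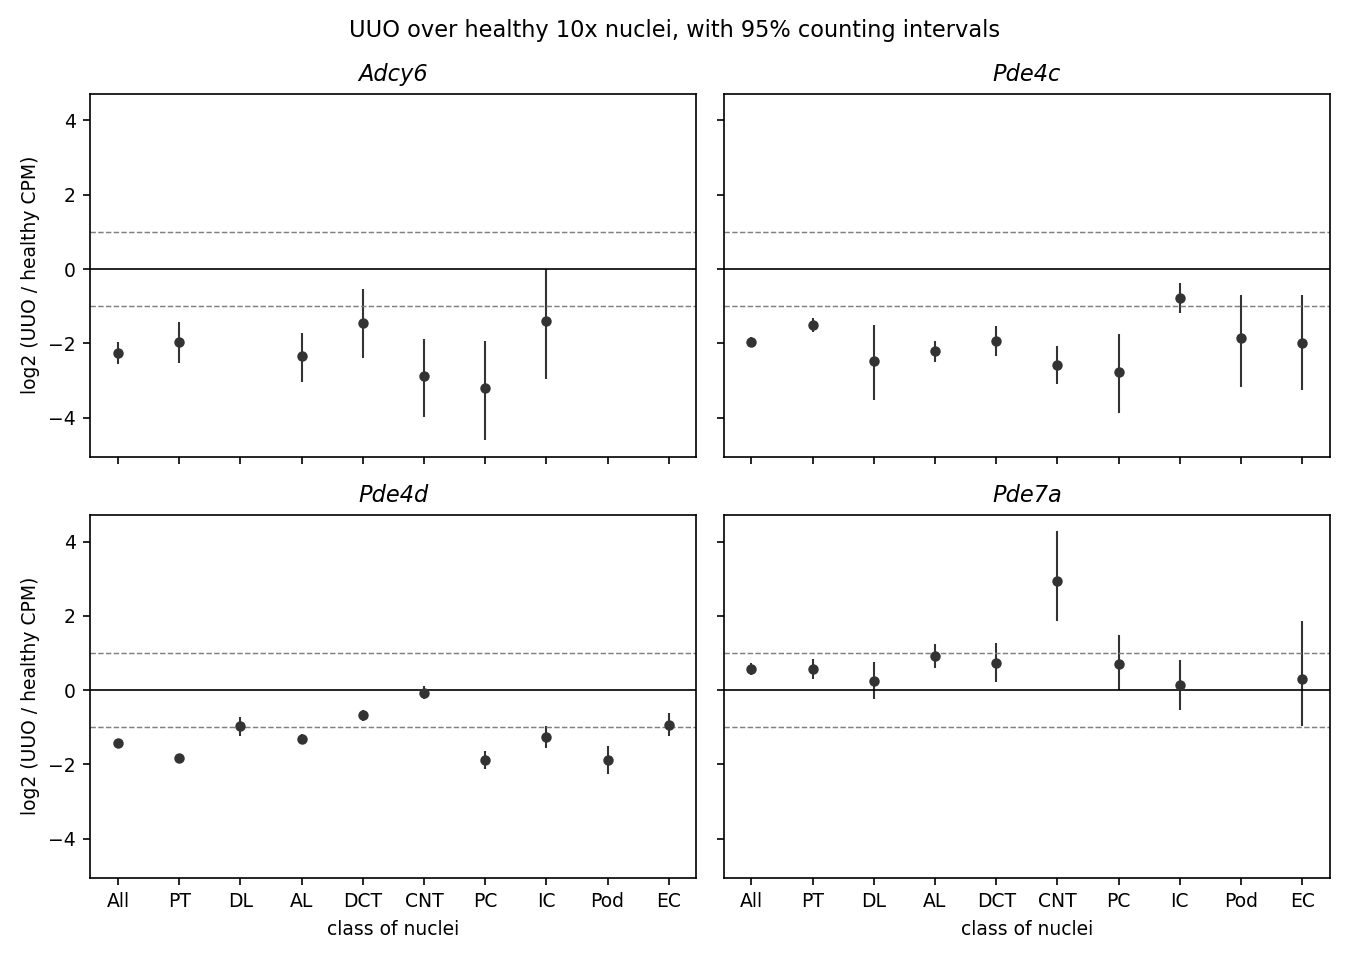
Log2 ratio of UUO to healthy 10x CPM (y axis) for 4 members over all nuclei and in 9 classes (x axis, abbreviations as in the map of levels by class). Points are ratios, bars exact 95% counting intervals, dashed lines 2-fold, and classes with fewer than 20 counts have no point. Adcy6 and Pde4c lie below 0 in every class shown, Pde4d is lowest in PC and Pod at -1.88 and nearest 0 in CNT at -0.07, and Pde7a is highest in CNT at 2.94.

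Of the cyclic AMP phosphodiesterases, Pde4d and Pde4c had the broadest differences. Pde4d was at 1547 CPM over UUO nuclei, against 4127 CPM in healthy 10x, 3428 in sNucDrop-seq and 3789 in DroNc-seq, with a log2 ratio of -1.42 (interval -1.45 to -1.38) against healthy 10x. In the proximal tubule it was at 2009 CPM in UUO, against 7133, 4083 and 4826 CPM in healthy 10x, sNucDrop-seq and DroNc-seq. The log2 ratios were -1.83, -1.02 and -1.26 in that order. Every proximal tubule label of UUO was below the healthy 10x ones: S1 at 2696, S2 at 2029, S3 at 1569, Dediff. PT at 2663 and Prolif. PT at 1556 CPM, against 7286 for healthy S1-S2 and 6952 for healthy S3.

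Pde4d was detected in 57.8% of UUO and 92.0% of healthy 10x proximal tubule nuclei thinned to 500 UMIs (85.6% and 96.7% unthinned). In the connecting tubule it did not differ beyond counting error, with 1894 CPM in UUO and 1983 CPM in healthy 10x (log2 ratio -0.07, interval -0.24 to 0.11), and in principal cells it was at 654 CPM in UUO against 2410 CPM in healthy 10x. Pde4c was at 124 CPM over UUO nuclei and 482 CPM over healthy 10x nuclei, and was below healthy 10x in 9 of 9 classes measured, by at least 2-fold in 8. Its levels in sNucDrop-seq and DroNc-seq were 181 and 234 CPM, so the healthy 10x library was the highest of the healthy ones, and against these 2 references the log2 ratio over all nuclei was -0.55 and -0.92, short of 2-fold.

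Pde7a, which hydrolyses cyclic AMP and is known from T cells, ran the other way. It was above healthy 10x in 8 of 8 classes measured, at 208 CPM over UUO nuclei and 141 CPM over healthy 10x nuclei, a log2 ratio of 0.56 (interval 0.40 to 0.72), but DroNc-seq was at 219 CPM. In principal cells, intercalated cells, descending limb and endothelium the interval held 0. In intercalated cells the ratio turned to -0.38 against sNucDrop-seq and -0.39 against DroNc-seq. Against DroNc-seq it was also -0.40 in the proximal tubule and -0.20 in the distal convoluted tubule. In the ascending limb, connecting tubule and principal cells it stayed above 0 against both. The ratio against healthy 10x passed 2-fold in the connecting tubule, at 279 CPM in UUO against 36.3 CPM (7 counts) in healthy 10x, 75.6 in sNucDrop-seq and 137 in DroNc-seq. Pde8a was at 256 CPM in UUO and 257 CPM in healthy 10x over all nuclei, yet classes differed. It was at 343 CPM in UUO and 212 CPM in healthy 10x proximal tubule, and at 58.7 CPM in UUO and 342 CPM in healthy 10x principal cells.

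In the proximal tubule 1 of 26 measured members was higher in UUO and 8 were lower, 30.8%, against 14.6% of all genes higher and 20.7% lower. The higher one was Pde5a, the cyclic GMP phosphodiesterase that sildenafil inhibits, at 27.0 CPM (98 counts) in UUO and 11.8 CPM (14 counts) in healthy 10x. The lower ones were Adcy6, Adcy7, Pde4c, Pde4d, Pde7b, Pde8b, Pde9a and Pde10a. Of the 8, Adcy6, Pde4d and Pde7b were also at least 2-fold lower than in sNucDrop-seq and DroNc-seq. Pde9a, a cyclic GMP phosphodiesterase of high affinity, was at 44.8 CPM in UUO proximal tubule and 168 CPM in healthy 10x, but 66.0 CPM in sNucDrop-seq and 90.9 CPM in DroNc-seq, so the size of its ratio rested on the healthy library used.

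In the ascending limb 0 of 22 members were higher in UUO and 8 were lower, 36.4%, against 16.0% of all genes higher and 17.2% lower. Pde1a, one of the 8, was at 206 CPM in UUO, against 721 CPM in healthy 10x, 687 in sNucDrop-seq and 1208 in DroNc-seq, with log2 ratios of -1.81, -1.74 and -2.55. Pde7b, at 137 CPM in UUO and 500 CPM in healthy 10x, and Pde10a, at 17.9 and 76.9 CPM, were also at least 2-fold below all 3 healthy nucleus libraries, as were Adcy6 and Pde4d. Adcy7, Pde4c and Pde8a made up the 8.

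In the distal convoluted tubule 3 of 17 members were higher in UUO and 4 were lower, against 20.9% of all genes higher and 14.4% lower. Pde8b was at 124 CPM in UUO against 48.4, 9.65 and 47.6 CPM in healthy 10x, sNucDrop-seq and DroNc-seq. Pde4b was at 109 CPM in UUO against 41.0 in healthy 10x, and Pde1c at 48.2 against 22.4, from 6 healthy counts and with an interval that holds 0. Pde10a, placed in this segment in health, was at 68.5 CPM in UUO, below the 209, 232 and 190 CPM of healthy 10x, sNucDrop-seq and DroNc-seq. Adcy6, Pde1a and Pde4c were the other lower members.

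In the connecting tubule 7 of 18 members were higher in UUO and 4 were lower, 38.9% and 22.2%, against 24.9% and 13.2% of all genes. In principal cells 0 of 14 were higher and 8 were lower, 57.1%, against 21.4% of all genes higher and 13.3% lower. The members higher in the connecting tubule were Pde1c, Pde3b, Pde4b, Pde6d, Pde7a, Pde7b and Pde8b, and those lower in principal cells included Pde1c, Pde3b and Pde8b. Pde8b was at 674 CPM in UUO and 197 CPM in healthy 10x connecting tubule, and at 585 CPM in UUO and 1385 CPM in healthy 10x principal cells. Pde3b was at 758 CPM in UUO and 317 CPM in healthy 10x connecting tubule, and at 210 and 491 CPM in principal cells. Pde1c was at 251 CPM in UUO and 109 CPM in healthy 10x connecting tubule, and at 244 and 578 CPM in principal cells. In UUO Pde3b was higher in the connecting tubule, while the intervals of the labels overlapped for Pde8b (609 to 743 and 516 to 660) and Pde1c (212 to 294 and 200 to 294). In healthy 10x Pde8b and Pde1c were higher in principal cells, while the Pde3b intervals overlapped (242 to 407 and 371 to 637). The principal cell ratio turned with the healthy library used: for Pde8b it was 1.47 against sNucDrop-seq (210 CPM) and 0.74 against DroNc-seq (349 CPM), and for Pde3b 0.94 and 0.42.

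The 2 labels did not hold their markers alike in the 2 libraries. Aqp2, the vasopressin-regulated water channel that defines principal cells, was at 49.7 CPM in UUO and 4084 CPM in healthy 10x principal cells, and at 45.7 and 555 CPM in the connecting tubule. The principal cell list was higher in UUO connecting tubule than in UUO principal cells, though its members differed. The sodium channel subunits Scnn1b and Scnn1g were at 134 and 103 CPM in UUO connecting tubule and 67.7 and 15.8 CPM in UUO principal cells, while Fxyd4, a sodium pump regulator, was at 168 CPM in UUO connecting tubule and 251 CPM in UUO principal cells. With both labels summed in each library, Pde8b was at 635 CPM in UUO and 639 CPM in healthy 10x (log2 ratio -0.01, interval -0.24 to 0.23), Pde1c at 248 and 284 CPM (-0.20, interval -0.55 to 0.17) and Pde3b at 523 and 381 CPM (0.46, interval 0.17 to 0.76), none of them 2-fold apart. Differences that remained in the sum were Adcy6 (19.3 CPM in UUO and 156 in healthy 10x), Pde4c (62.9 and 404), Pde8a (123 and 349), Pde9a (29.0 and 81.5) and Pde10a (61.9 and 127), all lower, and Pde7a (276 and 84.8), higher. This sum was chosen after seeing the data and was set against healthy 10x only. In the connecting tubule alone, log2 ratios against sNucDrop-seq and DroNc-seq were -0.03 and 0.28 for Pde8a, -0.52 and 0.34 for Pde9a and -0.86 and 0.71 for Pde10a. They were -0.85 and -1.74 for Pde4c, -2.69 and -3.02 for Adcy6 and 1.89 and 1.03 for Pde7a. In principal cells Pde8a was at -1.90 and -1.34 against the same libraries.

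**Figure D4:**
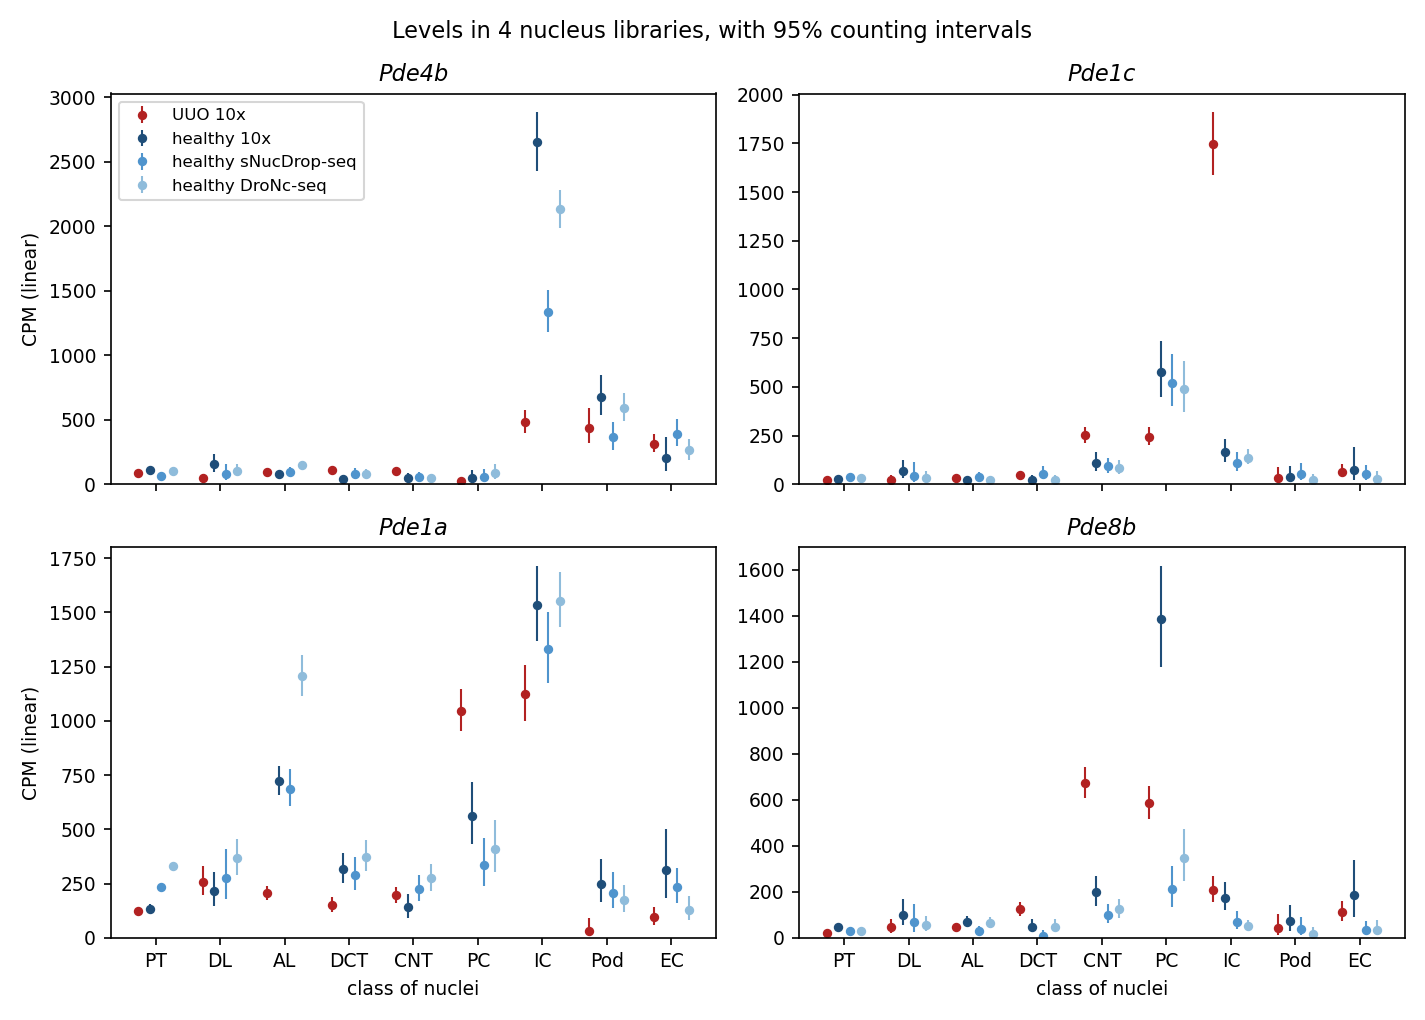
Level of Pde4b, Pde1c, Pde1a and Pde8b in CPM (y axes, linear) in 9 classes (x axes, abbreviations as in the map of levels by class) of the UUO 10x library and the 3 healthy nucleus libraries. Points are CPM and bars exact 95% Poisson intervals. In IC the UUO point of Pde4b, 481 CPM, lies below the 3 healthy ones and that of Pde1c, 1745 CPM, above them; in PC the UUO point of Pde8b, 585 CPM, lies inside the healthy range of 210 to 1385.

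In intercalated cells 1 of 15 members was higher in UUO and 4 were lower, 6.67% and 26.7%, against 16.0% and 12.4% of all genes. Pde1c, the higher one, had 464 counts and 1745 CPM in UUO, against 33 counts and 164 CPM in healthy 10x, 110 CPM in sNucDrop-seq and 137 CPM in DroNc-seq. The log2 ratio against healthy 10x was 3.41 (interval 2.90 to 3.97), and it was 2.87 against IC-A alone and 3.98 against IC-B alone. The counts were spread over 177 of 295 nuclei, with at most 11 in 1 nucleus, and in nuclei thinned to 500 UMIs Pde1c was detected in 48.6% of UUO and 6.21% of healthy 10x intercalated cells (60.0% and 16.4% unthinned). The proximal tubule, at 24.5 CPM in UUO and 29.5 CPM in healthy 10x, showed no such difference.

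Pde4b was lower in the same cells. It was at 481 CPM in UUO intercalated cells, against 2652 CPM in healthy 10x, 1337 in sNucDrop-seq and 2133 in DroNc-seq, with log2 ratios of -2.46, -1.47 and -2.15. Thinned to 500 UMIs it was detected in 21.6% of UUO and 65.5% of healthy 10x intercalated cells (25.8% and 79.9% unthinned). UUO intercalated cells were still the highest class of that library for Pde4b, 4.73-fold above the other nuclei. Their interval (402 to 572 CPM) overlapped that of UUO podocytes, at 438 CPM (317 to 590). In UUO Pde4b was also placed in podocytes and under the JGA label. Pde1a, also placed in intercalated cells, was at 1124 CPM there in UUO and 1535 CPM in healthy 10x, a log2 ratio of -0.45. In UUO it was placed under the JGA label too, at 1171 CPM, and in principal cells, at 1047 CPM against 561 CPM in healthy 10x. That principal cell log2 ratio was 0.90 (interval 0.52 to 1.30), and 1.64 and 1.35 against sNucDrop-seq and DroNc-seq. Adcy6, Adcy9 and Pde4d were the remaining lower members in intercalated cells, where Pde4d was at 549 CPM in UUO and 1316 CPM in healthy 10x.

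The UUO label does not separate IC-A from IC-B. The intercalated marker list was at 2373 CPM in UUO and 5552 CPM in healthy 10x intercalated cells, Slc26a4, the chloride-bicarbonate exchanger of IC-B, was at 346 and 3084 CPM, and Slc4a1, the exchanger of IC-A, had 0 counts in UUO and 17 in healthy 10x. Kit was at 1166 CPM in UUO and 834 CPM in healthy 10x. The part of these marker levels in the Pde1c and Pde4b ratios was not tested, though both held against IC-A and IC-B taken singly, where Pde4b had log2 ratios of -1.99 and -2.72.

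Across the 6 classes counted, 48 ratios were at least 2-fold against healthy 10x, and 25 of them were at least 2-fold in the same direction against both other healthy nucleus libraries as well. Among the 48, Adcy6 and Pde10a in principal cells and Adcy7 in the ascending limb were not measured against every reference, and they count as not held. The share of all genes that held was not taken, so 25 of 48 is not a result about the members. These comparisons share the UUO library. The ratios below 1 that held were Adcy6 in 5 classes, Pde4d in 4, Pde7b and Pde10a in 2 each, and Pde1a, Pde1c, Pde4b, Pde4c and Pde8a in 1 each. Those above 1 were Pde1c, Pde3b, Pde6d, Pde7a and Pde8b in the connecting tubule, Pde8b in the distal convoluted tubule and Pde1c in intercalated cells. Pde6d, a prenyl-binding partner of photoreceptor PDE6 that has no catalytic role, was at 96.5 CPM in UUO and 31.1 CPM (6 counts) in healthy 10x connecting tubule.

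The remaining members had few counts or differed less. Pde6b, a rod photoreceptor subunit, had 12 counts in UUO and 29 in healthy 10x over all nuclei. Adcy1 was at 26.2 CPM in UUO and 52.3 CPM in healthy 10x ascending limb, just short of 2-fold, with 22 and 34 counts. Pde11a was at 30.3 CPM in UUO and 54.7 CPM in healthy 10x proximal tubule, and its UUO counts lay under S1 (58.9 CPM), S2 (29.6 CPM) and S3 (24.6 CPM). Adcy2, Adcy3, Pde4a and Pde6a were not 2-fold apart from healthy 10x in any class measured. Adcy3 was higher in UUO over all nuclei by log2 ratios of 1.23 against sNucDrop-seq and 1.82 against DroNc-seq, against 0.19 with healthy 10x. In the proximal tubule Pde4a had log2 ratios of 1.48 and 1.69 against sNucDrop-seq and DroNc-seq, against 0.39 with healthy 10x, and Pde6a -1.51 against sNucDrop-seq. Pde3a was at 306 CPM in UUO and 544 CPM in healthy 10x podocytes.

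Genes around the members in the cyclic AMP pathway were taken from lists chosen with the members. For each list the numbers higher and lower are over all nuclei, where 10.2% of 12831 genes were higher in UUO and 20.5% lower. Of the Gs-coupled receptors and their partners, 8 of 30 were measured over all nuclei, 1 higher in UUO and 4 lower, with a median log2 ratio of -0.25 against -0.16 for all genes. The receptor partner Ramp2 was at 101 CPM in UUO and 56.7 CPM in healthy 10x. The calcitonin receptor Calcr was at 34.5 CPM in UUO and 12.6 in healthy 10x, the parathyroid hormone receptor Pth1r at 110 and 229, and the glucagon receptor Gcgr at 6.75 and 56.7. Of the Gi-coupled receptors, which inhibit cyclases, 7 of 19 were measured, 1 higher and 4 lower, with a median of -1.40. Drd3 (7 and 13 counts) was at least 4-fold lower from few counts, as was Gpr157 (6 and 14 counts) among the Gs-coupled ones. The prostaglandin receptor Ptger3 was at 41.7 CPM in UUO and 272 CPM in healthy 10x, the adrenergic receptor Adra2b at 29.3 and 77.4 CPM, and the calcium-sensing receptor Casr at 23.1 and 118 CPM. Ptger3 and Casr mark the ascending limb, whose share of nuclei was also lower in UUO, and within that class Ptger3 was at 125 CPM in UUO and 872 CPM in healthy 10x.

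Downstream of cyclic AMP, 0 of 9 protein kinase A genes were 2-fold apart over all nuclei, with a median of -0.36. The most counted were the inhibitor Pkia, at 141 CPM in UUO and 89.2 CPM in healthy 10x, the inhibitor Pkig, at 101 and 129 CPM, and the regulatory subunit Prkar1a, at 110 and 89.2 CPM. Of the G protein subunits 13 of 15 were measured, 1 higher (Gnb1, at 320 CPM in UUO and 133 CPM in healthy 10x) and 1 lower (Gnb5), with a median of 0.24. Gnaq, with the most counts, was at 542 CPM in UUO and 346 CPM in healthy 10x, and Gng12 at 461 and 391 CPM. Of the A-kinase anchors, scaffolds that hold kinase A in place, 11 of 12 were measured, Akap12 and Akap13 higher and Akap5 lower, with a median of -0.17. Akap13 was at 867 CPM in UUO and 366 CPM in healthy 10x, Akap9 at 208 and 183 CPM, and Akap10 at 141 and 184 CPM. Of the other effectors and exporters 7 of 11 were measured, 2 higher and 2 lower, with a median of 0.11. Abcc4, a pump that exports cyclic nucleotides, was at 634 CPM in UUO and 149 CPM in healthy 10x, and was at least 2-fold higher in the proximal tubule (592 and 121 CPM), distal convoluted tubule (733 and 119), connecting tubule (988 and 145), principal cells (1352 and 175) and intercalated cells (650 and 149). Its relative Abcc5 was at 194 CPM in UUO and 180 CPM in healthy 10x over all nuclei.

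Of the exchange factors that cyclic AMP activates, Rapgef4 was at 159 CPM in UUO and 70.2 CPM in healthy 10x over all nuclei, and Rapgef3 at 58.2 and 216 CPM. In the ascending limb Rapgef4 was at 392 CPM in UUO and 12.3 CPM (8 counts) in healthy 10x, and Rapgef3 at 44.1 and 135 CPM. In intercalated cells both were lower, Rapgef4 at 128 CPM in UUO and 442 CPM in healthy 10x, and Rapgef3 at 75.2 and 233 CPM. In the list of CREB factors, coactivators and targets 14 of 18 genes were measured, 1 higher and 4 lower, with a median of -0.13. Creb3l1 had 15 counts in UUO and 33 in healthy 10x. Creb5 was at 226 CPM in UUO and 15.3 CPM in healthy 10x, Pck1, the gluconeogenic enzyme that cyclic AMP induces in liver, at 6.07 and 279, and Ppargc1a, a coactivator of mitochondrial genes, at 291 and 791. The coactivators Crebbp, at 270 CPM in UUO and 307 CPM in healthy 10x, and Ep300, at 221 and 165 CPM, were not 2-fold apart. Of the cyclic GMP makers and effectors 7 of 15 were measured, 1 higher (Gucy1a2, at 77.7 CPM in UUO and 29.5 CPM in healthy 10x) and 2 lower, with a median of -0.17. The cyclic GMP-dependent kinase Prkg1 was at 305 CPM in UUO and 207 CPM in healthy 10x, and the natriuretic peptide receptor Npr3 at 8.91 and 6.79 CPM. Nos1, a nitric oxide synthase, had 16 counts in UUO and 57 in healthy 10x. Of genes related to the members but outside their name pattern, 4 of 6 were measured, with Prune2 higher (109 counts in UUO and 11 in healthy 10x) and none lower, and a median of -0.21. Among them Pde4dip, a protein that binds Pde4d, was at 231 CPM in UUO and 279 CPM in healthy 10x, and Prune1 at 45.1 and 49.9 CPM.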

How the data were processed

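The authors deposited whole-number UMI counts per gene and barcode in 2 tables, 19713 genes for the healthy libraries and 21516 for UUO, 18249 of them in both, with a cell label per barcode. STAR 2.5.3a and build mm10 are named in the submitters' processing notes; nothing used here states whether introns or strand were counted, or how barcodes were filtered and clustered. Of the members, 8 share exon bases with an opposite-strand gene (GENCODE, mm10), so their reads cannot be told apart without strand. All deposited barcodes were kept and doublets were not called; barcodes above 3 class medians of UMIs numbered 186 in UUO and 43 in healthy 10x, and an alternative left them out.

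Counts were summed per label class and library and scaled to CPM. Sums carry exact Poisson intervals, shares exact Clopper-Pearson intervals, and ratios exact intervals conditional on the total, all at 95% and for counting error only. For shares, barcodes were thinned to 500 UMIs, which left out 801 UUO and 128 healthy 10x nuclei. The ratio code was tested on simulated data. The level of every member kept was taken in each class; from each pathway list the text names up to 3 genes with the most counts over the 10x libraries and genes at least 4-fold apart with 20 or more counts over all nuclei, and those that counts of 5 or fewer refer to; values of pathway genes within classes were chosen after seeing them. Members, lists and comparisons were chosen with earlier results of these data known; the intercalated cell counts, the single IC labels and the summed connecting tubule and principal cell labels were chosen after seeing the data. Depth was 2947137 to 7411036 UMIs per library. The alternatives tried were scaling by TMM or median of ratios, other totals, barcode filters, count minimums, class weights, labels and healthy references. Versions were R 4.3.3, edgeR 4.0.16 (TMM factors), Python 3.11.15, matplotlib 3.10.9, pandas 2.3.3, numpy 2.4.6 and scipy 1.17.1. No count test was run, since each group had 1 library.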

Additional observations from a re-analysis of the deposited data

Results flagged for a closer look

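Within the 6 tubule classes counted, 5 phosphodiesterases had a ratio of UUO to healthy 10x of at least 2-fold in opposite directions in different classes, with each counting interval clear of 0. With 1 library a group the difference between classes was not tested. Pde1c had log2 ratios of 1.20 in the connecting tubule, -1.25 in principal cells and 3.41 in intercalated cells. Pde3b had 1.26 in the connecting tubule and -1.23 in principal cells. Pde8b had 1.36 in the distal convoluted tubule, 1.77 in the connecting tubule, -1.28 in the proximal tubule and -1.24 in principal cells. Pde4b had 1.41 in the distal convoluted tubule, 1.10 in the connecting tubule and -2.46 in intercalated cells. Pde7b had 1.02 in the connecting tubule, -1.31 in the proximal tubule and -1.87 in the ascending limb. Against sNucDrop-seq and DroNc-seq the principal cell ratios turned to 0.94 and 0.42 for Pde3b and to 1.47 and 0.74 for Pde8b. In the same order Pde4b was at 0.50 and 0.48 in the distal convoluted tubule and 0.74 and 1.06 in the connecting tubule. These Pde4b ratios rested on 11 and 9 healthy 10x counts. Pde8b was at -0.59 and -0.64 in the proximal tubule, and Pde7b at 1.44 and 0.46 in the connecting tubule. The remaining ratios of the 5 genes were at least 2-fold in the same direction against both. Outside those 6 classes Pde8a was also 2-fold apart both ways, at 1.56 in endothelium, from 6 healthy counts, and -2.55 in podocytes, with -1.14 in the ascending limb, -1.05 in the connecting tubule and -2.54 in principal cells. With the connecting tubule and principal cell labels summed, Pde1c, Pde3b and Pde8b were less than 2-fold apart, while Pde1c and Pde4b in intercalated cells do not rest on those labels.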

How the results depend on the processing

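Leaving out a replicate was not possible with 1 library a group. No paired analysis was possible because each group had 1 library. The 54 ratios past 2-fold gave 466 further values, of which 382 lay inside the counting interval, 73 outside it on the same side of 0 and 11 on the other side; the cause was not tested. With sNucDrop-seq as the healthy reference, members higher in UUO numbered 6 over all nuclei, 6 in the proximal tubule, 2 in the ascending limb, 5 in principal cells and 6 in intercalated cells, and members lower 5 in the ascending limb, 2 in the distal convoluted tubule, 1 in the connecting tubule and 5 in principal cells; log2 ratios turned to -0.14 for Pde1c in the distal convoluted tubule, and to 0.94 for Pde3b and 1.47 for Pde8b in principal cells. With DroNc-seq, members higher numbered 6 over all nuclei, 3 in the proximal tubule, 4 in the ascending limb, 6 in the distal convoluted tubule, 4 in principal cells and 4 in intercalated cells, and members lower 2 in the connecting tubule; ratios turned to 0.30 for Adcy7 in the proximal tubule, 0.28 for Pde8a and 0.34 for Pde9a in the connecting tubule, and 0.42 for Pde3b and 0.74 for Pde8b in principal cells. With the connecting tubule and principal cell labels summed, 1 member was higher and 5 were lower, and ratios turned to -0.20 for Pde1c, -0.0079 for Pde8b and 0.46 for Pde3b. Members higher over all nuclei numbered 1 by TMM, 1 by median of ratios and 2 with equal class weights. Members higher numbered 4 in the connecting tubule by median of ratios, 1 in the ascending limb without barcodes of high UMI counts, 2 in the proximal tubule and 2 in principal cells by the mean of barcode CPM, and 1 in principal cells at a count minimum of 10. At a minimum of 50, members lower numbered 2 in the connecting tubule, 5 in principal cells and 2 in intercalated cells. Against IC-A alone 2 members were higher and 2 lower in intercalated cells, and against IC-B alone 3 were higher. By a 2-fold rule 17 members were placed in healthy 10x, and by a 5-fold rule 7. For the member counts of this section, the share of all genes under the same setting was not taken. They therefore do not show whether the members moved more than other genes. TMM shifted the median of all genes by 0.15 over all nuclei, -0.16 in the distal convoluted tubule, -0.20 in the connecting tubule and -0.12 in principal cells. Depth limits ratios from few counts, such as Adcy6 in intercalated cells with 7 counts in UUO and 14 in healthy 10x.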
